A study of Homo sapiens with 6 samples.

Results

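The genes examined were 9 genes of the insulin, phosphoinositide 3-kinase (PI3K), AKT and FOXO pathway, namely IRS1, IRS2, PIK3CA, PIK3R1, PIK3R3, AKT1, AKT2, FOXO1 and FOXO3. They were listed by symbol for their place in the pathway, and all 9 were found among the 28563 genes analysed. Earlier results of these data were known when these genes and the other lists were chosen. The samples were cells labelled as HepG2, an established human liver cancer line, though most hepatocyte markers analysed were near 0 in them. They were grown in 10 cm dishes and treated for 24 h either with 336 µM polydatin (PD), a glucoside of resveratrol, or with DMSO, the vehicle, as the control. Each group had 3 libraries of poly(A) RNA from separate dishes of the same line, so that p-values measured the spread between dishes and not between donors or lines. The paper that reported the samples gives a slightly lower dose of PD than their labels. The values were FPKM, which scale the fragments counted on a gene to its length and to the size of its library. Totals worked back from the FPKM ranged from 16763318 to 17274927 fragments over the DMSO libraries and from 16308476 to 18071632 over the PD libraries. Libraries of 1 group differed from each other by far less than libraries of different groups (chi-square per gene of 2.29 to 3.78 within groups and 52.5 to 61.1 between them).

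When insulin or an insulin-like growth factor binds its receptor, the receptor phosphorylates the adaptor proteins IRS1 and IRS2, which recruit PI3K through a regulatory subunit. The catalytic subunit of PI3K then makes a membrane lipid, PIP3, that brings AKT kinases to the membrane, where PDPK1 and mTORC2 activate them. Active AKT phosphorylates FOXO transcription factors and keeps them out of the nucleus, and in liver cells this turns down genes of glucose output, stress defence and cell cycle arrest. The pathway acts largely through phosphorylation, which these RNA values do not measure.

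The labelled cell type was checked against 20 hepatocyte markers, of which 10 were analysed here and ALB and AFP were not. The transcription factor HNF4A stayed at or under 0.106 FPKM in every library, and SERPINA1, FGA, FGG, TF, APOA1 and CYP3A4 stayed at or under 0.172 FPKM. CPS1, an enzyme of the urea cycle, was at 225 ± 3.45 FPKM in DMSO and 109 ± 2.6 FPKM in PD (SD, n = 3), and RBP4 was at 0.391 ± 0.0803 and 1.3 ± 0.376 FPKM. Most of the hepatocyte markers analysed thus went against the label HepG2, and whether the cells were of that line was not tested. Of the markers of other cells, the 5 endothelial genes analysed summed to at most 0.0888 FPKM in a library, the 3 leukocyte genes to 0.543 to 0.682 FPKM, and the 5 fibroblast genes to 4.52 to 5.4 FPKM in DMSO and 4.82 to 5.09 FPKM in PD. COL1A1 made up most of the fibroblast sum, and COL3A1 was at or under 0.0608 FPKM. The fibroblast and leukocyte sums overlapped between the groups, and the endothelial sum, near 0 throughout, was lower in each PD library. In bulk RNA, fewer cells that express a gene and less RNA per cell cannot be told apart.

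Promoter sequences are shown for IRS1 and IRS2, which are paralogs that differed in response, for PIK3R3, the tested member with the largest rise, and for TXNIP, a FOXO target with a large rise. Each is the 250 bases before the RefSeq gene start in GRCh38.p14, 5′ to 3′ on the strand of the gene, at chr2:226799821-226800070 (minus strand), chr13:109786584-109786833 (minus), chr1:46133037-46133286 (minus) and chr1:145996580-145996829 (minus). For PIK3CA only 29 bases around a match are shown, at chr3:179148197-179148225 (plus), because its window holds an annotated first exon. Capitals mark matches, on either strand, to the FOXO core motif GTAAACA or to the insulin response element CAAAACAA.
IRS1: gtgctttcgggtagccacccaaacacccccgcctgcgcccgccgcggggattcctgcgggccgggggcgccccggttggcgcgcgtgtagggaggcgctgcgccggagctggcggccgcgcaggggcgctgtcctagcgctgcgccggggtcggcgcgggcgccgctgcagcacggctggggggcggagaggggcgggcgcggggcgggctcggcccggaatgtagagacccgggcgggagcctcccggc
IRS2: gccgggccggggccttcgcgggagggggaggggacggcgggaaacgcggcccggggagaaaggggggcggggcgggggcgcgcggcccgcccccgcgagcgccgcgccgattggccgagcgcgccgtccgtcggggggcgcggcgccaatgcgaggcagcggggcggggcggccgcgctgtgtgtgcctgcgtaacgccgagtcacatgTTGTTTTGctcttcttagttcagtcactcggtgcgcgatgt
PIK3R3: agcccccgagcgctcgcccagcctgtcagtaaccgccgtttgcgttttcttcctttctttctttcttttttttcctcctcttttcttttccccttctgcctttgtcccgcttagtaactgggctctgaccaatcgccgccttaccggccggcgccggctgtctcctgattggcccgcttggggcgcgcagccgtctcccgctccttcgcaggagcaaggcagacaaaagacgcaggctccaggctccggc
PIK3CA: agttcgttgttTGTTTACacgatgtgagc
TXNIP: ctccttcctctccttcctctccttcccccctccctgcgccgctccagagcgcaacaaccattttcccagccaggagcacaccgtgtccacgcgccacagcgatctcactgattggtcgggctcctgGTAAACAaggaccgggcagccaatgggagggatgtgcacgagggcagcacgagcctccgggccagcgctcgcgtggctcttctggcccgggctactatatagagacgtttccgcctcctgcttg

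Of the 9 members, 2 had a match in the 250 bases before their RefSeq start. IRS2 held the insulin response element on the strand opposite to the gene, beginning 41 bases before the start. PIK3CA held the FOXO core on the strand opposite to the gene, 149 bases before its RefSeq start. The window of PIK3CA ends at chr3:179148356, and its GENCODE gene starts at chr3:179148114, so this match lies inside the GENCODE gene. TXNIP held the FOXO core on the strand of the gene, 124 bases before its start. Among all 35116 RefSeq promoter windows of this length, 2.98% held the FOXO core, 1.46% the insulin response element and 4.37% either of them. No other member held either motif. A match is only a stretch of letters, and bases beyond the windows were not searched.

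At the level of RNA, the adaptor IRS1 fell after PD while its paralog IRS2 showed no detectable change. The regulatory subunit PIK3R3 rose while the catalytic subunit PIK3CA showed no detectable change. AKT1 rose slightly while AKT2 fell, and FOXO3 rose. PIK3R1 was higher in each PD library, but it was under the filter of the main test, and a fit on fragments kept it only through those libraries. Differences were tested by limma on log2(FPKM + 1) over the 14400 genes that averaged 0.5 FPKM or more, with p-values adjusted by the Benjamini-Hochberg method over all of them. A gene passed if its adjusted p did not exceed 0.05. One that passed and changed 2-fold or more on the fitted scale, here FPKM + 1, was called a differentially expressed gene (DEG). A gene at a low level could thus change over 2-fold in FPKM and not be a DEG, as PIK3R3 did with a 2.1-fold rise of its mean. PIK3R1 lay below the filter, and of the 8 members tested 3 were higher and 2 lower in PD, against a background of 58.1% of all tested genes that passed, 31.9% higher and 26.2% lower. None of the 8 was a DEG, against 3.61% of all tested genes, and 6 had an unadjusted p under 0.05. The groups did not overlap in 6 of the 8 members, against 65.4% of all tested genes. The members therefore changed about as often as any expressed gene, and the median log2 change was 0.08 over the members and 0.01 over all tested genes.

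**Figure D1:**
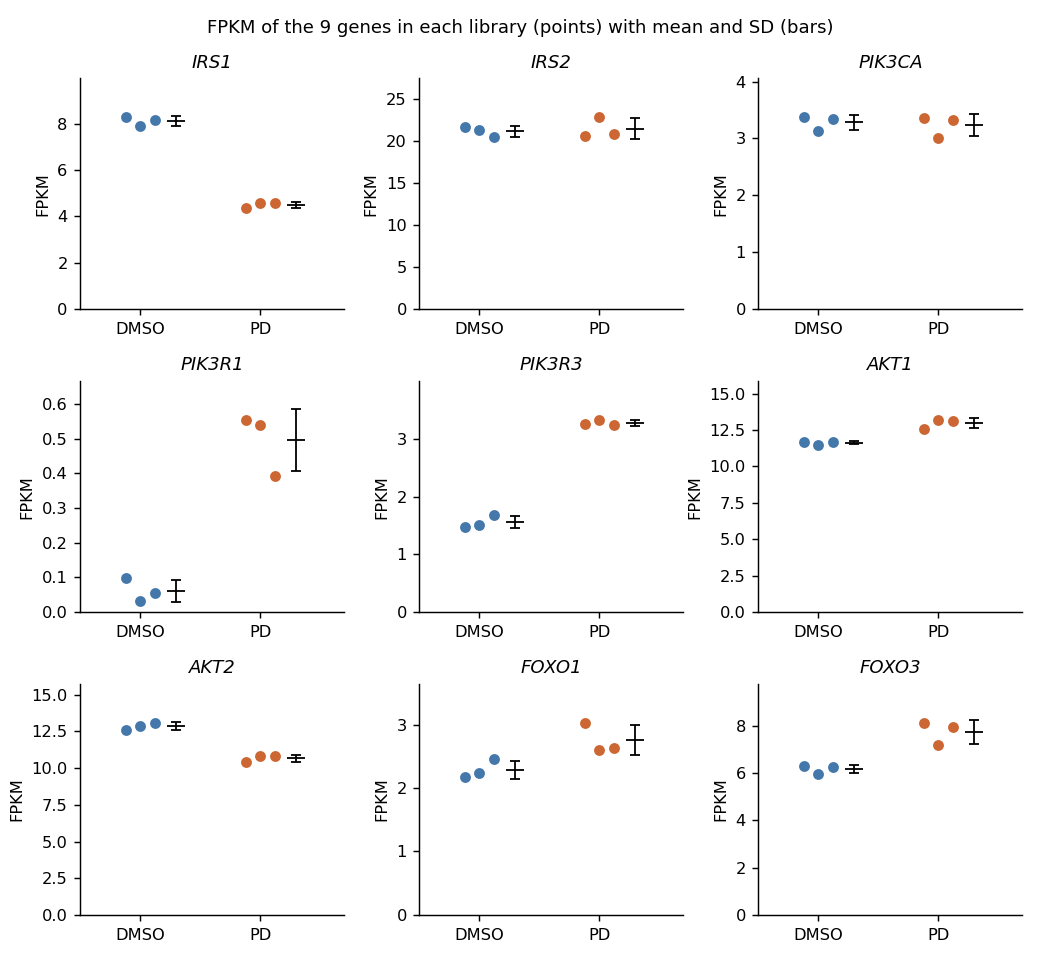
FPKM of the 9 genes in each of the 3 DMSO (blue) and 3 PD (orange) libraries, 1 panel per gene with its own axis from 0, with the mean and SD of each group beside the points. IRS1 and AKT2 lie lower in PD, PIK3R1, PIK3R3, AKT1, FOXO1 and FOXO3 lie higher, and the groups overlap for IRS2 and PIK3CA.

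IRS1 (ENSG00000169047, GRCh38 chr2:226731312-226799820, minus strand) is one of the main docking proteins of the insulin and IGF1 receptors. It was measured at 8.29, 7.89 and 8.15 FPKM in the DMSO libraries and at 4.34, 4.57 and 4.58 FPKM in the PD libraries. All PD values lay well below all DMSO values, with little spread in either group. The mean went from 8.11 ± 0.203 to 4.5 ± 0.135 FPKM (SD, n = 3), a log2 change of -0.73 (SE 0.05, 95% interval -0.84 to -0.62, adjusted p = 1.7e-05 in limma). It rested on 4131 fragments in DMSO and 2322 in PD, and its fall ranked 593 among the 14400 tested genes.

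IRS2 (ENSG00000185950, GRCh38 chr13:109752695-109786583, minus strand) does similar work to IRS1, and its gene is one that FOXO proteins can activate in liver. Its values were 21.7, 21.3 and 20.5 FPKM in DMSO and 20.6, 22.9 and 20.9 FPKM in PD. The groups overlapped, and the 95% interval of the log2 change, -0.09 to 0.13, left room only for a small difference in either direction (0.02, SE 0.05, adjusted p = 0.74). Beside the fall of IRS1, this changed the balance of the adaptors within each library. IRS2 was 2.52 to 2.69 times as abundant as IRS1 per length in DMSO and 4.58 to 5.01 times in PD. The log2 ratio differed by 0.87 with groups that did not overlap (two-sided exact permutation p = 0.10, the smallest that 3 against 3 allows, and 0.13 adjusted over 4 ratios).

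PIK3CA (ENSG00000121879, chr3:179148114-179240093, plus strand) encodes p110α, the catalytic subunit that insulin signalling uses in most tissues. Its values of 3.38, 3.14 and 3.34 FPKM in DMSO and 3.36, 3.01 and 3.33 FPKM in PD were nearly the same in both groups. The log2 change was -0.02 (SE 0.06, 95% interval -0.16 to 0.12, adjusted p = 0.81 in limma). The counts behind it are less certain than for IRS1, since 19.8% of its exon bases are shared with KCNMB3 on the opposite strand and a copy, KCNMB3P1, matches 2715 bases at 98.2% identity.

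PIK3R3 (ENSG00000117461, chr1:46040140-46133036, minus strand) encodes p55γ, a short regulatory subunit that links PI3K to phosphorylated receptors and adaptors. It was at 1.48, 1.51 and 1.68 FPKM in DMSO and at 3.26, 3.33 and 3.24 FPKM in PD. Every PD library was close to the same level and far above the highest DMSO library. The mean rose 2.1-fold from 1.56 ± 0.108 to 3.27 ± 0.0463 FPKM (SD, n = 3), and the change of log2(FPKM + 1), in which the added 1 compresses changes at low levels, was 0.74 (SE 0.06, 95% interval 0.60 to 0.89, adjusted p = 5.9e-05 in limma). With a pseudocount of 0.1 it was 1.03, and in limma voom on the 590 fragments in DMSO and 1260 in PD it was 1.07 (adjusted p = 1.5e-09), so that PIK3R3 was a DEG in both of these settings, in which 8.67% and 11.5% of all tested genes were. A readthrough transcript, P3R3URF-PIK3R3, shares 17.47% of its exon bases on the same strand.

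PIK3R1 (ENSG00000145675, chr5:68215740-68301821, plus strand) encodes p85α, the most common regulatory subunit in many tissues, together with its shorter forms. It was barely detected in DMSO, at 0.0968, 0.0332 and 0.0543 FPKM, and reached 0.555, 0.54 and 0.393 FPKM in PD. These values stood for 18, 6 and 10 fragments in DMSO and 108, 102 and 69 fragments in PD, so the lowest PD library had over 3 times the fragments of the highest DMSO library. The mean went from 0.0614 ± 0.0324 to 0.496 ± 0.0897 FPKM, an 8.08-fold ratio, the largest among the 9 members. In limma voom on fragments, which kept 15068 genes and passed 62.7% of them, the log2 change was 3.07 (SE 0.33, adjusted p = 4.8e-08). PIK3R1 met the filter of voom, at least 10 fragments in 3 libraries, only through its PD libraries. With no filter on FPKM, where 28.2% of genes passed, the change was 0.49 on the log2(FPKM + 1) scale (adjusted p = 0.002 in limma). Even after the rise, PIK3R1 was lower than PIK3R3 per length in every library. PIK3R3 was 15.3 to 45.3 times as abundant in DMSO and 5.88 to 8.23 times in PD, a difference in log2 ratio of -2.06 with groups that did not overlap (two-sided exact permutation p = 0.10, adjusted 0.13). With a pseudocount of 0.1 that difference was -0.86, because 0.1 FPKM is more than the DMSO level of PIK3R1.

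**Figure D2:**
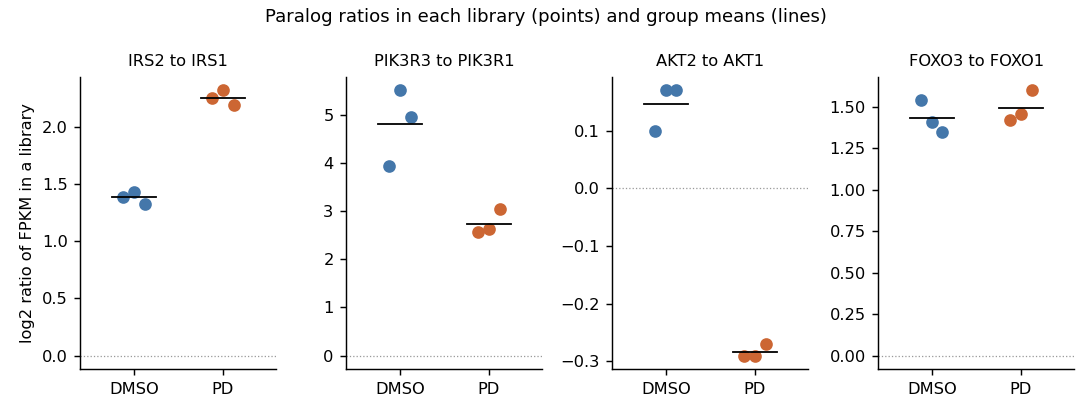
Log2 ratio of FPKM between paralogs in each library (points) for the 3 DMSO (blue) and 3 PD (orange) libraries, with group means as lines and a dotted line at equal levels. IRS2 to IRS1 lies higher in PD, PIK3R3 to PIK3R1 and AKT2 to AKT1 lie lower, and FOXO3 to FOXO1 overlaps between the groups. AKT2 to AKT1 crosses the line of equal FPKM, a crossing that depends on the gene lengths used.

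AKT1 (ENSG00000142208, chr14:104769349-104795751, minus strand) and AKT2 (ENSG00000105221, chr19:40230317-40285536, minus strand) encode closely related kinases, of which AKT2 is best known for insulin's effect on glucose handling and AKT1 for growth and survival. AKT1 was at 11.7, 11.5 and 11.7 FPKM in DMSO and at 12.6, 13.2 and 13.1 FPKM in PD, and AKT2 was at 12.6, 12.9 and 13.1 FPKM in DMSO and at 10.4, 10.8 and 10.8 FPKM in PD. By FPKM, AKT2 was the higher of the pair in every DMSO library and the lower in every PD library. This crossing depends on the lengths behind the FPKM, 15035 bases for AKT2 and 11162 for AKT1. In fragments AKT2 stayed above AKT1 in every library, with 2820, 2855 and 2655 against 2551, 2583 and 2376 in PD. AKT1 rose by a log2 change of 0.15 (SE 0.04, adjusted p = 0.012 in limma), a small change that no longer passed after scaling by the upper quartile (0.10, adjusted p = 0.051). AKT2 fell, with a log2 change of -0.25 (SE 0.04, adjusted p = 0.0014 in limma). Within a library, where scaling plays no part, the ratio of AKT2 to AKT1 was 1.07 to 1.12 in DMSO and 0.821 to 0.83 in PD, a log2 difference of -0.43 with groups that did not overlap (two-sided exact permutation p = 0.10, adjusted 0.13). A long noncoding RNA on the opposite strand shares 6.05% of the exon bases of AKT1.

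FOXO3 (ENSG00000118689, chr6:108559835-108684774, plus strand) and FOXO1 (ENSG00000150907, chr13:40555667-40666641, minus strand) are the transcription factors that AKT restrains, and FOXO1 is the form best known for driving gluconeogenic genes in liver. FOXO3 was at 6.31, 5.96 and 6.25 FPKM in DMSO and at 8.13, 7.17 and 7.95 FPKM in PD, and FOXO1 was at 2.17, 2.24 and 2.45 FPKM in DMSO and at 3.03, 2.6 and 2.63 FPKM in PD. Both were higher in each PD library than in each DMSO library, with PD replicate 1 the highest for both. The change of FOXO3 passed the test (log2 change 0.28, SE 0.06, adjusted p = 0.0039 in limma). That of FOXO1 did not (0.19, SE 0.07, 95% interval 0.02 to 0.36, adjusted p = 0.057), although it passed in voom (0.27, adjusted p = 0.023). The ratio of FOXO3 to FOXO1 was 2.55 to 2.9 in DMSO and 2.68 to 3.03 in PD, with overlap between groups (log2 difference 0.06, two-sided exact permutation p = 0.50). FOXO3B, a copy with 98.3% identity over 5430 bases of FOXO3, was listed at 1.38, 1.36 and 1.94 FPKM in DMSO and 2.67, 2.1 and 2.48 FPKM in PD, so reads of the pair may be split between them. A noncoding gene on the same strand shares 22.7% of the exon bases of FOXO1.

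The order of the members by FPKM, a level per length, was IRS2, AKT2, AKT1, IRS1, FOXO3, PIK3CA, FOXO1, PIK3R3 and PIK3R1 in DMSO, and no neighbours in this order overlapped in their ranges. In PD it was IRS2, AKT1, AKT2, FOXO3, IRS1, PIK3R3, PIK3CA, FOXO1 and PIK3R1. There AKT1 stood above AKT2 and FOXO3 above IRS1 without overlap. PIK3CA overlapped with both of its neighbours, PIK3R3 and FOXO1, in PD.

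The genes whose profile over the 6 libraries came nearest to that of PIK3R3, by the root mean square difference of log2(FPKM + 1) from the DMSO mean, were SLC1A4 (0.015), RNASEH2A (0.0204) and NIT1 (0.021), with log2 changes of 0.73 to 0.75. Nearest to IRS1 were GNG11 (0.015), DNAH17 (0.0172) and HOXC10 (0.0265), with log2 changes of -0.74 to -0.72. These names describe likeness over 6 libraries and were not tested.

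Around the 9 members, 100 of 108 other listed genes of the pathway were analysed, and 85 of them reached the filter. Of these, 36 rose and 22 fell, 68.2% in all against 58.1% of all tested genes, 31.9% higher and 26.2% lower. DEGs numbered 3, all higher in PD, no larger a share than the 3.61% of DEGs among all tested genes. Among these DEGs, SOCS1 met the filter only through its PD level. The receptors in front of the adaptors moved in opposite directions. INSR, the insulin receptor, was at 4.64, 4.58 and 4.71 FPKM in DMSO and at 6.15, 6 and 6.18 FPKM in PD, and it rose by 0.33 (SE 0.04, adjusted p = 0.00053 in limma). IGF1R, the IGF1 receptor, was at 23.6, 24.5 and 24.7 FPKM in DMSO and at 15.5, 16 and 15.7 FPKM in PD, with a log2 change of -0.60 (SE 0.04, adjusted p = 1.4e-05). Neither receptor's groups overlapped, and IGF1R stayed the more abundant in every library.

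Of the 7 tested receptors, ligands and binding proteins, 3 rose and 2 fell, and the median log2 change was 0.16. Together 71.4% passed, against 58.1% of all tested genes. IGF2R, which clears IGF2 from the cell surface, rose by 0.52 (adjusted p = 4e-05), and IGFBP1, an IGF binding protein whose gene insulin represses in liver, changed by -0.72 (adjusted p = 0.0067). Of the 10 tested adaptors other than IRS1 and IRS2, 4 rose and 1 fell, 50% in all, with a median of 0.13. The rises were led by SH2B2, an adaptor of the insulin receptor, whose mean went from 3.07 ± 0.239 to 6.47 ± 0.841 FPKM (log2 change 0.87, adjusted p = 0.00017), followed by SH2B3 (0.40, adjusted p = 0.0014) and GAB2 (0.35, adjusted p = 0.004). Besides IRS1, then, 1 tested adaptor fell, CRKL, at -0.12 (adjusted p = 0.037), named after its value was seen.

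Among the other PI3K subunits, 5 were tested, of which 3 fell and none rose, and the median was -0.25. These 3 were 60% of the list, near the 58.1% of all tested genes that passed. PIK3C2B, a class II enzyme, went from 49, 49 and 52.9 FPKM in DMSO to 31.1, 32.6 and 31.9 FPKM in PD (log2 change -0.64, SE 0.04, adjusted p = 1.7e-05 in limma). PIK3R4 and PIK3C3, which form the class III complex of autophagy and endosomes, changed by -0.25 each (adjusted p = 0.0082 and 0.042), and PIK3C3 by -0.49 in voom. The call of PIK3C3 was lost in 5 of the 6 fits that left out 1 library (adjusted p = 0.067 to 0.13), all but the fit without DMSO replicate 3. It was also lost with no filter on FPKM and with replicate number as a block (adjusted p = 0.087 and 0.088 in limma). PIK3CB, which encodes p110β, was at 9.33 ± 0.272 FPKM in DMSO and 9.64 ± 0.568 FPKM in PD, a log2 change of 0.04 (95% interval -0.08 to 0.16, adjusted p = 0.52). PIK3CB was thus like PIK3CA in showing no detectable change. PIK3CD, which encodes p110δ and lay below the filter, was at 0.247, 0.226 and 0.166 FPKM in DMSO and at 0.358, 0.378 and 0.475 FPKM in PD, and in voom it rose by 0.91 (SE 0.26, adjusted p = 0.004). PIK3R2, which encodes p85β, was listed at or under 0.0271 FPKM, and 76.35% of its exon bases are shared with another gene model on the same strand, to which its reads may have gone.

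Of the 13 tested lipid phosphatases and other brakes on the pathway, 7 rose and 1 fell, with a median of 0.16. The share that passed, 61.5%, was near the 58.1% of all tested genes. SOCS1, a feedback inhibitor of cytokine and insulin receptors, was at 0.284, 0.341 and 0.429 FPKM in DMSO and at 2.8, 3.03 and 2.6 FPKM in PD, a DEG at a log2 change of 1.50 (SE 0.09, adjusted p = 1.2e-05 in limma) resting on 22 fragments in DMSO and 179 in PD. Its mean rose 8-fold, and its log2 change was 2.70 with a pseudocount of 0.1 and 2.94 in voom. The DMSO mean of SOCS1 was 0.351 FPKM, under the filter of 0.5 FPKM, which it met only through its PD level. It met the filter of voom in the same way, with 6, 7 and 9 fragments in the DMSO libraries. INPPL1, the phosphatase SHIP2 that acts on PIP3, rose by 0.52 (adjusted p = 3e-05), and PTPRF, a phosphatase of the insulin receptor, rose by 0.39 (adjusted p = 0.00071).

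Of the kinases and complexes around AKT, 8 genes were tested, of which 3 rose and 2 fell, with a median of 0.06. Here too the share that passed, 62.5%, was near the 58.1% of all tested genes. PDPK1, the kinase of the activation loop of AKT, was at 5.2 ± 0.23 and 5.87 ± 0.0329 FPKM (0.15, adjusted p = 0.032). Its call was lost in 5 of the 6 fits that left out 1 library (adjusted p = 0.066 to 0.094), all but the fit without DMSO replicate 3. The call was also lost in both other scalings and with replicate number as a block (adjusted p = 0.058 in limma for the block). RICTOR, the defining subunit of mTORC2, changed by -0.47 (adjusted p = 0.00074) and SGK1, a relative of AKT, by -0.25 (adjusted p = 0.012). PRR5, another mTORC2 subunit, rose by 0.27 (adjusted p = 0.027, and 0.46 in voom), a call lost without DMSO replicate 2 or 3 or PD replicate 2 or 3 (adjusted p = 0.052 to 0.091). It was lost too with no filter on FPKM (adjusted p = 0.076 in limma) and with replicate number as a block (0.052).

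Of the 12 AKT substrates and mTORC1 genes, 5 rose and 5 fell, with a median of 0.04. In this list 83.3% passed, against 58.1% of all tested genes. EIF4EBP2, a repressor of translation that mTORC1 inactivates, was at 14.1, 14.9 and 13.8 FPKM in DMSO and at 29, 28.6 and 28.8 FPKM in PD, with a log2 change of 0.97 (SE 0.04, adjusted p = 3.4e-06 in limma). TBC1D4, the AKT substrate AS160 of glucose transporter traffic, rose by 0.56 (adjusted p = 0.00012), and RPTOR, the defining subunit of mTORC1, changed by -0.46 (adjusted p = 0.00013). RICTOR and RPTOR, which define the different complexes of mTOR, thus both fell. MTOR itself rose by 0.13 (adjusted p = 0.023 in limma). MLST8 and MAPKAP1, from the list around AKT, did not pass (log2 changes 0.09 and 0.01). These 3 genes were named after their values were seen.

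**Figure D3:**
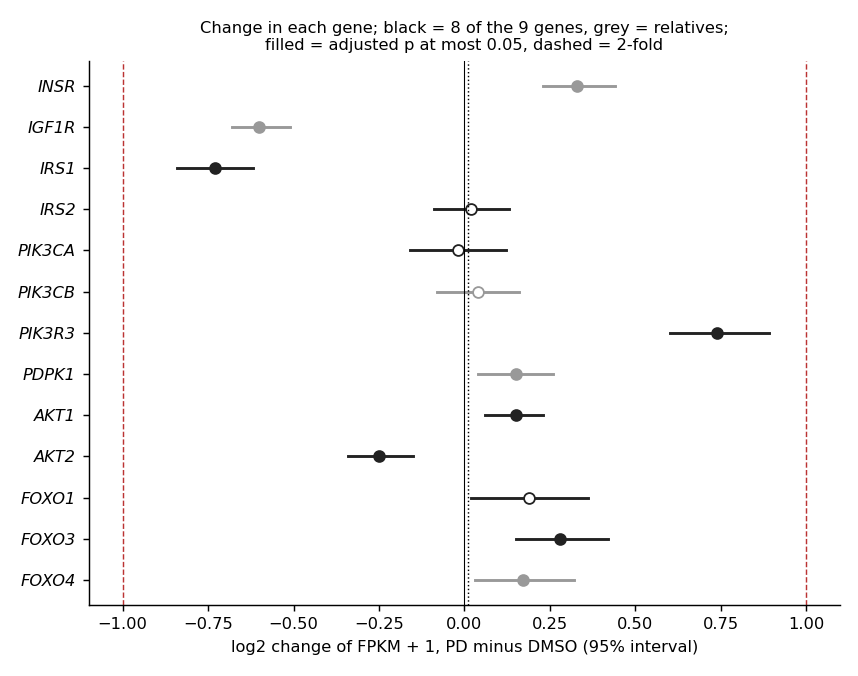
Log2 change of FPKM + 1 (PD minus DMSO) with its 95% interval for the 8 tested members (black) and 5 relatives (grey), with filled points for an adjusted p of at most 0.05 in limma, a dotted line at the median of all tested genes and dashed lines at 2-fold. IRS1 and IGF1R lie farthest to the left and PIK3R3 farthest to the right, and no interval reaches 2-fold on this scale of FPKM + 1.

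Downstream, the FOXO family and its regulators held 12 tested genes, of which 3 rose and 7 fell, with a median of -0.28. As a list 83.3% passed, against 58.1% of all tested genes. FOXO6 went from 1.16, 0.97 and 1.07 FPKM in DMSO to 1.98, 2.09 and 1.82 FPKM in PD (log2 change 0.52, SE 0.08, adjusted p = 0.00099 in limma, and 0.88 in voom). FOXO4 was at 2.58 ± 0.125 and 3.03 ± 0.135 FPKM (0.17, adjusted p = 0.043). It passed in only 2 of 12 alternatives, a pseudocount of 0.1 and the fit without DMSO replicate 3. In voom it did not pass (adjusted p = 0.08). All 4 FOXO genes therefore had higher means in PD, with FOXO3 and FOXO6 passing in every setting. XPO1, the exportin that carries FOXO proteins out of the nucleus, changed by -0.44 (adjusted p = 0.00041), and YWHAZ, a 14-3-3 protein that binds phosphorylated FOXO, by -0.43 (adjusted p = 0.00011).

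Of 24 known FOXO target genes, 18 were tested, of which 11 rose, 1 fell and 6 did not pass. Those that passed made up 66.7%, against 58.1% of all tested genes. The median log2 change was 0.24 against 0.01 over all tested genes. TXNIP, an inhibitor of thioredoxin and of glucose uptake, was at 17.1, 16.5 and 13.1 FPKM in DMSO and at 52.6, 49.2 and 51.2 FPKM in PD. SESN3, a sestrin that restrains mTORC1, was at 1.48, 1.73 and 1.53 FPKM in DMSO and at 7.87, 6.97 and 6.52 FPKM in PD. In both genes the PD libraries lay far above the DMSO libraries. Both were DEGs, at log2 changes of 1.66 (SE 0.09, adjusted p = 1e-05 in limma) and 1.65 (SE 0.08, adjusted p = 6e-06). The target that fell was CDKN1B, the cell cycle inhibitor p27, which went from 51.4, 52.4 and 51.2 FPKM to 26.6, 25.3 and 25.8 FPKM (log2 change -0.97, SE 0.03, adjusted p = 2.6e-06). Outside this list, IRS2, whose gene FOXO proteins can activate in liver, showed no detectable change (0.02). IGFBP1, whose gene insulin represses in liver, was counted with the receptors and ligands and changed by -0.72. PCK1, the gluconeogenic target, was listed at 0 FPKM in 5 libraries and at 0.0167 FPKM in PD replicate 2, which stood for 2 fragments. PCK1 is named after its values were seen. Of the 19 FOXO targets with a promoter window, 2 held a motif, against 4.37% of all RefSeq promoter windows. They were TXNIP and BCL2L11, the latter named for its match, and are too few for a comparison of shares.

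**Figure D4:**
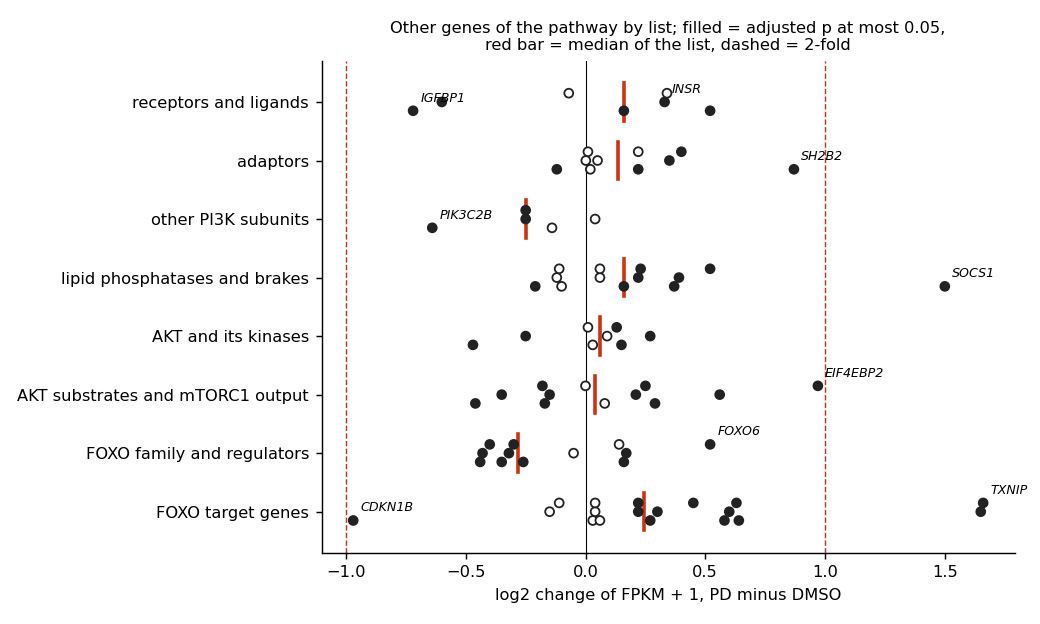
Log2 change of FPKM + 1 (PD minus DMSO) of the 85 other pathway genes tested, 1 row per list and 1 point per gene, filled for an adjusted p of at most 0.05 in limma, with a red bar at the median of each list and dashed lines at 2-fold. On this scale of FPKM + 1, SOCS1 and the FOXO targets TXNIP and SESN3 lie beyond 2-fold, and CDKN1B and EIF4EBP2 lie just inside it. The medians of the lists lie between -0.28 and 0.24.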

How the data were processed

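RNA of cells labelled as HepG2 and treated with PD or DMSO was sequenced in 3 libraries per group, and samples were grouped by their labels. The authors made poly(A) libraries with the NEBNext Ultra kit, which does not mark strand, mapped the read pairs on hg38 using HISAT2, counted with HTSeq 0.6.0 and deposited FPKM, which were the only values used. The annotation release was not given in the sources used here. Adding 1 to FPKM before taking logs compresses changes at low levels.

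The 14400 genes that averaged 0.5 FPKM or more were fitted with limma 3.58.1 (R 4.3.3), using an intensity trend and no covariate. Whole fragments were worked back from the FPKM with GENCODE release 44 exon lengths, or else from steps in the values (tolerance 1e-06), and gave 99.75% of every library's total. Intervals cover 95%. Ratios of paralogs were tested by exact permutation tests in scipy 1.17.1. The limma fits were first run on simulated fragments with known changes, all over 2-fold and none in genes of low level. Smaller changes were not simulated. The permutation test was checked only on a few made-up values. Alternatives were a pseudocount of 0.1, no filter, a replicate block, median-of-ratios or upper quartile scaling, voom on fragments (at least 10 in 3 libraries) and leaving out each library. Promoters were from RefSeq (GRCh38.p14), and for genes with several windows the one nearest to the GENCODE start was taken.

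Genes named were the members, close relatives, some of which are not reported here, and in each list the 3 largest changes that passed, and for the member with the largest rise and fall the 3 nearest profiles. CRKL, PCK1, BCL2L11, MTOR, MLST8, MAPKAP1 and GRB14 were named outside this rule. The members and lists were chosen with earlier results of these data known.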

Additional observations from a re-analysis of the deposited data

How the results depend on the processing

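The changes of IRS1, PIK3R3, AKT2 and FOXO3 kept their direction and passed in all 12 alternatives, with ranges of -0.85 to -0.71, 0.71 to 1.07, -0.29 to -0.23 and 0.24 to 0.33, and AKT1 passed in 11. The count of members that passed, 5 in the main setting, was 4 to 7 over the alternatives, and that of pathway genes, 58, was 44 to 65. DEGs among the members numbered 1 with a pseudocount of 0.1 and 2 in voom, against 0, and DEGs among the pathway genes numbered 5 and 6, against 3, and 4 under either scaling. PIK3R1 and the pathway gene GRB14, DEGs in voom, were under the filter of the main setting. Both met the filter of voom only through their PD libraries. The cause of the other moves was not tested. Changes near 0 that did not pass turned direction for IRS2 under median-of-ratios scaling (-0.01), upper quartile scaling (-0.02) and without PD replicate 2 (-0.02), for PIK3CA without PD replicate 2 (0.02), and for PIK3CB under upper quartile scaling (-0.00078) and without PD replicate 1 (-0.0022). The cause of these turns was not tested. Over the fits that left out 1 library, these ran from -0.02 to 0.05 for IRS2, -0.04 to 0.02 for PIK3CA, and -0.0022 to 0.07 for PIK3CB. No pairing of libraries by replicate number was detected, though such weak correlations cannot exclude it. The deviations of same-numbered libraries correlated at -0.027, -0.00462 and 0.0898, and not every library correlated best with its own number. With the replicate block 5 members and 53 pathway genes passed. No scaling moved the median of all tested genes by over 0.1. PIK3R1 was tested only without the filter and in voom, and leaving out single libraries was not run in those settings. With 3 libraries a group the permutation test cannot reach 0.05.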
